A study of Mus musculus with 32 samples.

Results

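Muscle stem cells and the mesenchymal cells beside them both change between day 3 and day 7 of muscle repair, and the 16 control libraries of the series let the 2 courses be set against each other. The comparison was the day 7 minus day 3 change in satellite cells minus the same change in fibro-adipogenic progenitors (FAPs), so that a positive difference means a course that ran higher in satellite cells. It used 16 of the 32 libraries, in 4 groups of 4: satellite cells at day 7 and at day 3, and FAPs at day 7 and at day 3. Both cell types came from the supraspinatus, a rotator cuff muscle, of wild-type male C57BL/6J mice aged 12 weeks, and every muscle had been injured with cardiotoxin, a venom toxin that destroys muscle fibres. The control muscles had the injury alone. The other 16 libraries came from muscles of the same mice that also received interscapular brown fat of 3-week-old donors, and they appear here only as a second measurement. Cells were sorted as negative for CD45 and CD31 and positive for Sca1, and integrin alpha 7 then split them: satellite cells carried it and FAPs did not. Each day had 4 mice, and no mouse was sampled on both days. Each day has its own deposited table, and a batch that goes with the table cannot be told apart from the day.

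Satellite cells lie quiet under the basement membrane of the muscle fibre, are activated by injury, divide as myoblasts, and then either fuse into new fibres or return to quiescence. FAPs are interstitial cells marked by PDGFRA and Sca1 that expand early after injury, secrete matrix and growth factors, and decline in number as fibres regrow. After cardiotoxin, division and inflammation come early, and matrix remodelling and fibre growth follow.

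Total counts ran between 21.9 M and 46.4 M per control library (median 26.4 M), and a gene with no count could still lie as high as 0.137 CPM (counts scaled to the same library total) in the shallowest library and 0.0647 CPM in the deepest, by counting error only. Levels below are CPM adjusted by TMM factors, and values per library follow the order mice 1a, 1b, 3 and 5 at day 7 and mice 2b, 3a, 3b and the mouse without a code at day 3. Pax7, the satellite cell transcription factor, was at 54.3 to 134.2 CPM in satellite cells at day 7 and at 24.8 to 38.0 CPM at day 3, and at 0.609 CPM or less in every FAP library. Pdgfra was at 0.214 to 13.6 CPM in satellite cells and at 293 to 445 CPM in FAPs. The Sca1 gene Ly6a was at 2.23 to 31.8 CPM in satellite cells and at 597 to 1263 CPM in FAPs, although both sorts selected Sca1. Libraries of 2 mice stood apart in markers of other cells or of sex. The day 3 satellite cell library of the mouse without a code held 9.70 CPM of the leukocyte gene Ptprc, against at most 0.299 CPM in the other satellite cell libraries, and Pdgfra was highest in it too. Day 7 mouse 5 expressed Xist at 294 CPM in satellite cells and 199 CPM in FAPs and had 0 CPM of the Y-linked Kdm5d, against its label of male. Results are given without these 2 mice where leaving them out changed a call or moved a count by over 1.5 times. This was checked for class counts, list counts, the differences of genes chosen by the naming rule, and Pdgfra, Ly6a and Dcn in satellite cells. Other day calls and differences of single genes were not checked in this way. Day 7 mouse 3 also had the highest matrix sums, and only its column names carry an added number of unstated meaning. List counts were not rerun without mouse 3.

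Of 18069 genes tested, the course ran higher in satellite cells for 2788 (15.4%) and lower for 1516 (8.39%) at an adjusted p under 0.05 (edgeR quasi-likelihood test of the day by cell type difference, with the mouse as a block). In satellite cells alone, day 7 was higher than day 3 for 5867 genes (32.5%) and lower for 4389 (24.3%). In FAPs 1842 genes were higher (10.2%) and 1857 lower (10.3%). The median log2 change over all genes was 0.19 in satellite cells and 0.09 in FAPs, and the median difference was 0.12. Higher calls made up 64.8% of the differences, but 56.0% with RLE size factors and 49.1% with TMM factors computed within each cell type, which moved the median difference by -0.09 and -0.15, so the balance of the 2 directions depends on the scaling. Sorting the genes by the 3 tests gave 60 that moved in opposite ways with the rise in satellite cells, and 54 with the rise in FAPs. In satellite cells only, 1884 rose and 874 fell. In FAPs only, 115 rose and 162 fell. A common course, called in both cell types in the same direction with no called difference, was seen for 914 genes that rose and 1051 that fell. A shared direction with a called difference was seen for 448 genes that rose more in satellite cells, 20 that rose more in FAPs, 355 that fell more in satellite cells and 100 that fell more in FAPs. The classes that need a call in FAPs shrank when a day 3 mouse was left out. FAP calls, 3699 in all, numbered 1865 without mouse 3a, 2026 without mouse 3b and 2043 without the mouse that has no code. The FAP-only genes, 277 in all, then numbered 142, 164 and 165, and the common ones, 1965 in all, numbered 1030, 1140 and 1127.

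**Figure D1:**
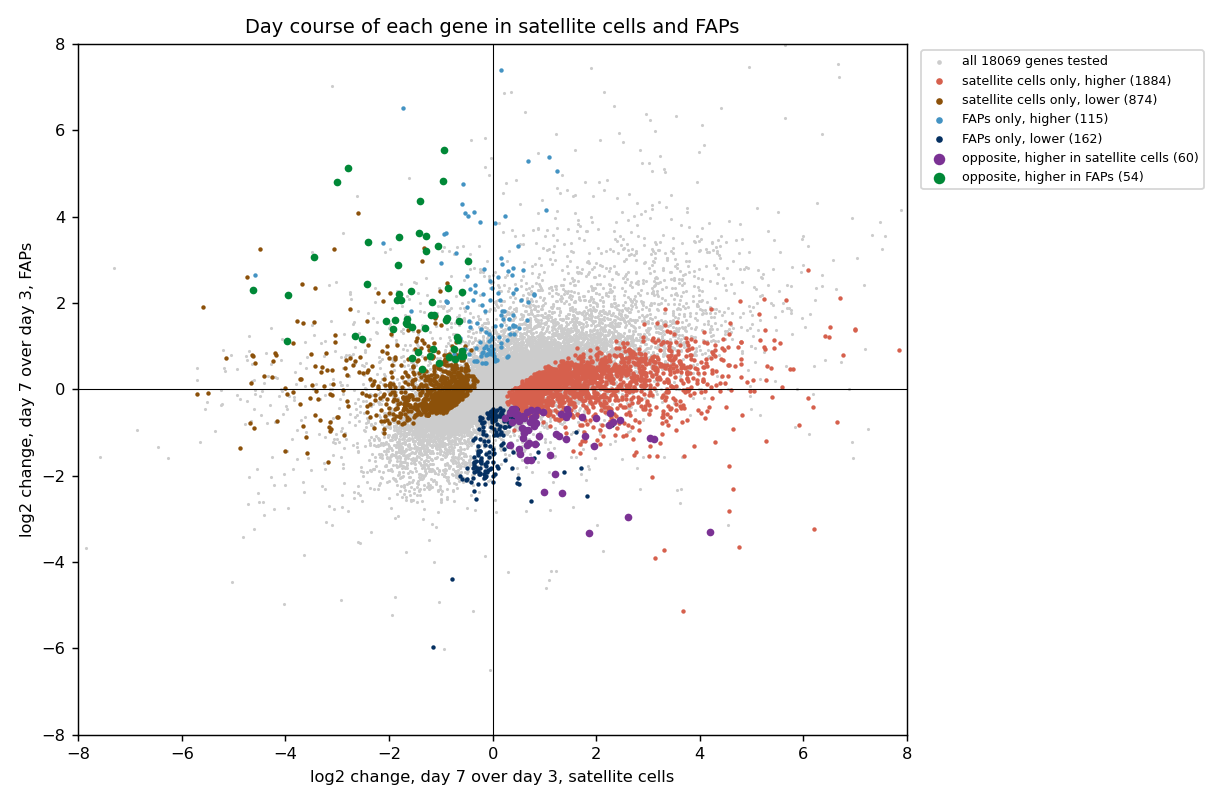
Log2 change of day 7 over day 3 in satellite cells (horizontal axis) and in FAPs (vertical axis), 1 point per gene, with 10 genes beyond the axes at 8. Coloured points are genes with a called difference that moved in opposite ways or in 1 cell type only; the 1884 genes that rose in satellite cells only make up the largest coloured group.

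Genes that moved in opposite ways were few. Unless an overlap is stated, the days of these opposite genes did not overlap in either cell type. S100a16, an EF-hand calcium-binding protein (ENSMUSG00000074457, mm10 chromosome 3, 90537254 to 90543151), was at 254, 280, 165 and 258 CPM in satellite cells at day 7, against 83.8, 111, 125 and 87.5 CPM at day 3. In FAPs the same gene was at 276, 349, 244 and 266 CPM at day 7, against 565, 602, 624 and 534 CPM at day 3. The days did not overlap in either cell type, and at day 7 the levels of the 2 cell types had come close to each other. The difference of the 2 courses was 2.27 ± 0.16 (log2, SE; adjusted p = 5.03e-05), from 1.23 ± 0.19 in satellite cells and -1.03 ± 0.16 in FAPs.

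Secreted and matrix-acting proteins were among the genes with a rise in satellite cells and a fall in FAPs. Srpx2, a secreted sushi-repeat protein, averaged 125 ± 24.9 CPM in satellite cells at day 7 and 69.4 ± 7.71 CPM at day 3, and 371 ± 48.5 CPM in FAPs at day 7 and 635 ± 75.5 CPM at day 3 (SD, n = 4 each). Loxl3, a lysyl oxidase that cross-links matrix fibres, averaged 38.0 CPM in satellite cells at day 7 and 8.01 CPM at day 3, where the mouse without a code had 18.8 CPM and the other mice at most 4.63 CPM. Its FAP level was 279 CPM at day 7 and 496 CPM at day 3. Ccn2, the connective tissue growth factor, was at 80.3, 91.2, 178.6 and 30.3 CPM in satellite cells at day 7, against 16.7, 35.6, 18.9 and 24.2 CPM at day 3, where the ranges overlapped. In FAPs Ccn2 was at 343.8, 253.8, 410 and 247.7 CPM at day 7, against 467.3, 597.7, 484 and 437.1 CPM at day 3, with no overlap. The difference of its courses was 2.49 ± 0.37 (adjusted p = 1.585e-03). Gpx3, a secreted glutathione peroxidase, averaged 1990 CPM in satellite cells at day 7 and 359 CPM at day 3, and 3937 CPM in FAPs at day 7 and 6405 CPM at day 3, a difference of 3.22 ± 0.24 (adjusted p = 6.78e-05), and its FAP days overlapped. Pon3, a lactonase of the paraoxonase family, averaged 42.6 CPM in satellite cells at day 7 and 25.8 CPM at day 3, and 60.3 CPM in FAPs at day 7 and 101 CPM at day 3.

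Mxd3, a partner of MAX in the MYC network, changed by more than a log2 of 1 in both cell types. It averaged 26.6 ± 4.85 CPM in satellite cells at day 7 and 10.6 ± 1.73 CPM at day 3, and 4.21 ± 1.73 CPM in FAPs at day 7 and 22.2 ± 5.41 CPM at day 3. The difference was 3.77 ± 0.34 (adjusted p = 1.69e-04). Neil3, a DNA glycosylase of dividing cells, took the same course with a difference of 2.52 ± 0.32, although 1 FAP library, that of day 7 mouse 5, held 6.04 CPM against 1.51 to 2.27 CPM in the other day 7 libraries. Kcnab1, a beta subunit of potassium channels, and Mlf1, the myeloid leukemia factor, differed by 4.28 ± 0.49 and 2.40 ± 0.34.

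In the reverse direction 54 genes fell in satellite cells and rose in FAPs. Kcnn4, the calcium-activated potassium channel KCa3.1 (ENSMUSG00000054342, mm10 chromosome 7, 24370263 to 24386690), was at 1.53, 1.45, 2.51 and 2.23 CPM in satellite cells at day 7, against 30.9, 28.2, 21.0 and 40.2 CPM at day 3. FAPs had 2.99, 10.2, 15.5 and 2.64 CPM at day 7, against 1.61, 2.25, 1.38 and 1.66 CPM at day 3. The satellite cell ranges lay far apart, while in FAPs the lowest day 7 library was close to the highest day 3 library. The difference was -5.84 ± 0.57 (adjusted p = 2.55e-04).

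Ezr, ezrin, which ties actin to the cell membrane, averaged 55.8 ± 11.8 CPM in satellite cells at day 7 and 128 ± 26.2 CPM at day 3, and 99.3 ± 54.5 CPM in FAPs at day 7 and 30.0 ± 3.23 CPM at day 3. Mtss1, a membrane-bending protein, differed by -3.00 ± 0.20 (adjusted p = 4.26e-05). Srgap3, a GTPase-activating protein of the SLIT-ROBO pathway, differed by -3.98 ± 0.35, Ptk2b, the PYK2 kinase, by -3.91 ± 0.36, and Fmo1, a flavin monooxygenase, by -3.06 ± 0.35. Cdk6, a kinase of early G1, averaged 151 CPM in satellite cells at day 7 and 334 CPM at day 3, and 34.7 CPM in FAPs at day 7 and 18.1 CPM at day 3 (difference -1.98 ± 0.26, adjusted p = 8.77e-04), and its FAP days overlapped. Ctsl, the lysosomal protease cathepsin L, averaged 277 CPM in satellite cells at day 7 and 814 CPM at day 3, and 779 CPM in FAPs at day 7 and 467 CPM at day 3 (difference -2.28 ± 0.18, adjusted p = 8.44e-05).

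The following genes of this class had FAP levels under those of satellite cells at day 3. Ankrd1, an ankyrin repeat protein of muscle, averaged 152 ± 32.6 CPM in satellite cells at day 7 and 631 ± 66.3 CPM at day 3, and 9.24 ± 2.68 CPM in FAPs at day 7 and 3.06 ± 0.71 CPM at day 3. Met, the hepatocyte growth factor receptor, averaged 40.1 CPM in satellite cells at day 7 and 74.2 CPM at day 3, and 4.27 CPM in FAPs at day 7 and 1.36 CPM at day 3. St8sia2, which adds polysialic acid to NCAM, and Trp53i11 differed by -3.70 ± 0.24 and -5.09 ± 0.30. Their satellite cell means were 57.0 and 231 CPM at day 3 and 9.97 and 14.7 CPM at day 7. Their FAP means were 2.05 and 1.84 CPM at day 3 and 4.61 and 3.997 CPM at day 7. For St8sia2 the satellite cell and FAP libraries of day 7 overlapped with each other. Lrp4, the agrin receptor of the neuromuscular junction, reached FAP levels as high as those of satellite cells: 20 CPM in satellite cells at day 7 and 54.6 CPM at day 3, and 20.7 CPM in FAPs at day 7 and 11.4 CPM at day 3. Of the 60 genes with the rise in satellite cells 53 had at least 1 CPM on some day in both cell types, and of the 54 with the rise in FAPs 41 had. The count of 60 was 12 without day 3 mouse 3a, 16 without mouse 3b, 24 without the mouse that has no code, 29 without mouse 2b, 39 without day 7 mouse 1a and 95 without day 7 mouse 5. The count of 54 was 24, 17, 28 and 29 without day 3 mice 3a, 3b, the mouse without a code and 2b. For the opposite genes chosen by the naming rule, the difference itself stayed called with each mouse left out in turn.

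**Figure D2:**
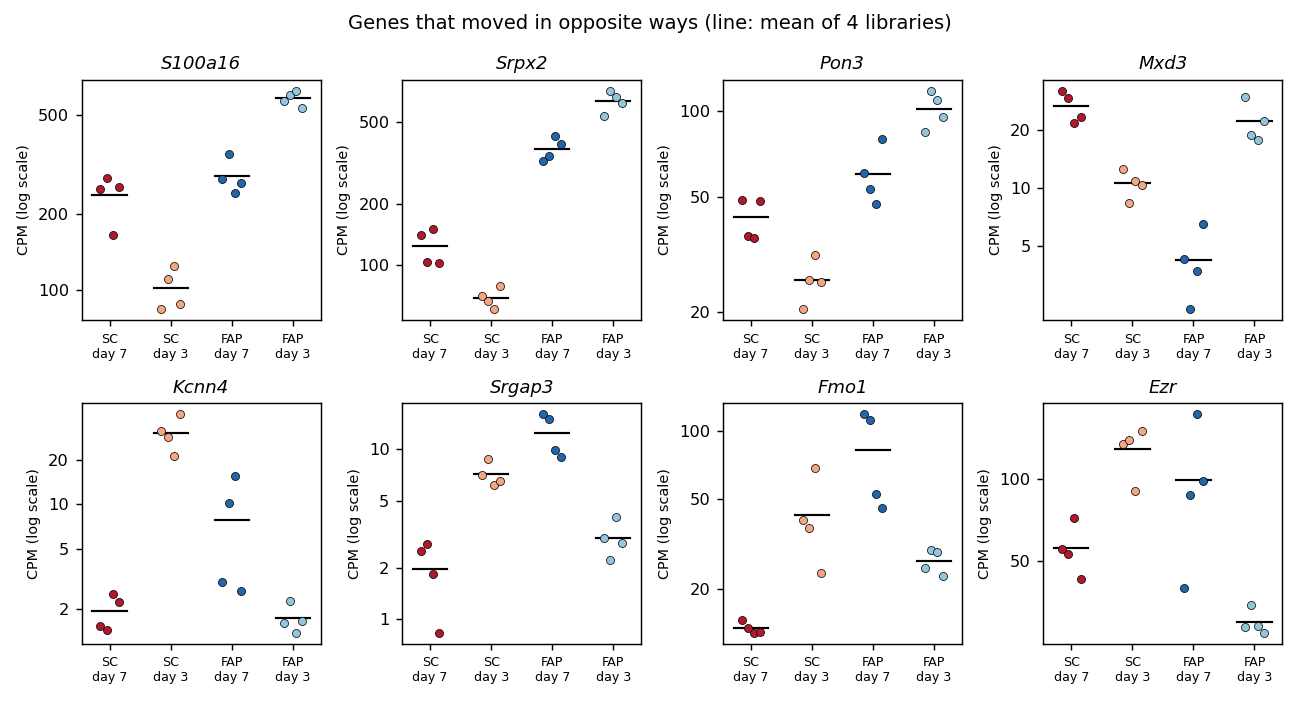
Level of 8 genes in each library (CPM, log scale), 4 points per group with a line at the mean; SC are satellite cells. In the upper row satellite cells are higher at day 7 and FAPs lower, as for S100a16 (means of 239 and 102 CPM in satellite cells, 284 and 581 CPM in FAPs); the lower row shows the reverse, as for Kcnn4.

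In satellite cells only, 1884 genes were called as rising. Of these, 1757 were measured in FAPs at 1 CPM or more, and 1391 of these had a FAP change under 0.5 on the log2 scale. The class rests on the absence of a call in FAPs, which does not show that a gene stayed the same there. Fam114a1, a gene of uncertain function, was at 108, 104, 109 and 102 CPM in satellite cells at day 7, against 12.0, 17.0, 18.7 and 16.8 CPM at day 3. In FAPs it averaged 319 ± 30.8 CPM at day 7 and 362 ± 46.6 CPM at day 3. The satellite cell days were far apart and the FAP days overlapped, with a difference of 2.91 ± 0.15 (adjusted p = 2.97e-05). Egr2, a growth-responsive zinc finger factor, averaged 135 ± 15.8 CPM in satellite cells at day 7 and 14.9 ± 1.29 CPM at day 3, and 154 ± 11.4 CPM in FAPs at day 7 and 130 ± 18.8 CPM at day 3. Tgfbr3, the TGF-beta co-receptor betaglycan, averaged 56.4 CPM in satellite cells at day 7 and 5.36 CPM at day 3, and 128 CPM in FAPs at day 7 and 92.8 CPM at day 3. Msc, the bHLH repressor musculin, was higher in satellite cells than in FAPs at day 7: 150 ± 33.5 CPM in satellite cells at day 7 and 13.7 ± 3.46 CPM at day 3, against 23.8 ± 7.28 CPM in FAPs at day 7 and 22.5 ± 3.05 CPM at day 3. The FAP days overlapped for Egr2 and Msc. They lay apart for Tgfbr3, whose FAP change of 0.47 ± 0.17 was short of a call (edgeR, adjusted p = 0.0665).

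Among genes eligible for naming, the largest rises in satellite cells only were those of Steap4, a metalloreductase (log2 4.92 ± 0.85), Pdgfrb, the PDGF receptor of pericytes and fibroblasts (4.80 ± 0.81), Procr, the protein C receptor (4.42 ± 0.98), Galnt16, an enzyme of O-glycosylation (4.31 ± 0.60), and the cytokine Il6 (4.25 ± 0.75). All 5 were highest at day 7 in mouse 3. Pdgfrb was at 63.9, 60.3, 314 and 42.2 CPM in satellite cells at day 7, against 1.2, 3.34, 3.38 and 9.39 CPM at day 3, and averaged 241 CPM in FAPs at day 7 and 198 CPM at day 3. The pericyte marker Rgs5 rose beside them, at 193, 338, 972 and 395 CPM in satellite cells at day 7, against 2.49, 15.2, 12.4 and 7.25 CPM at day 3. Of 12 pericyte and smooth muscle markers 11 rose in satellite cells and 3 in FAPs, where 32.5% and 10.2% of all genes rose. The difference was called higher for 7, beside 15.4% of all genes. Among the 12, Des is also on the myogenic list and was called in neither cell type, so their sum is not of pericyte genes alone. Their summed level was 2594 to 4716 CPM in satellite cells at day 7 and 769 to 961 CPM at day 3, against 193 to 556 CPM and 331 to 647 CPM in FAPs. The 4716 CPM was that of mouse 3, and the other day 7 satellite cell libraries had at most 2704 CPM. The part of pericytes and smooth muscle cells in the rise of other genes was not tested. In bulk libraries a change in the cells of a type cannot be told apart from a change in RNA per cell.

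Genes that fell in satellite cells only numbered 874, of which 798 were measured in FAPs and 662 of these changed there by under 0.5 on the log2 scale. Hmga1, a chromatin protein of proliferating and embryonic cells, was at 34.4, 58.2, 78.0 and 45.1 CPM in satellite cells at day 7, against 759, 749, 571 and 1051 CPM at day 3, while FAPs averaged 109 CPM at day 7 and 113 CPM at day 3, with an overlap of days. Hmga1b is a near-identical copy and followed it, so reads of the pair may have been split between them. Gpd2, the mitochondrial glycerol-3-phosphate dehydrogenase, averaged 34.4 ± 5.43 CPM in satellite cells at day 7 and 160 ± 14.8 CPM at day 3, and 30.3 ± 5.65 CPM in FAPs at day 7 and 29.5 ± 2.05 CPM at day 3 (difference -2.25 ± 0.14, adjusted p = 2.97e-05), and its FAP days overlapped. Tuba4a, an alpha tubulin, Egln3, an oxygen-sensing prolyl hydroxylase, and Slc37a2, a sugar phosphate transporter, had log2 changes of -3.38, -3.31 and -3.70 in satellite cells.

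Fewer genes were called in FAPs only. H19, an imprinted non-coding RNA of growth control (ENSMUSG00000000031, mm10 chromosome 7, 142575529 to 142578143), averaged 288 ± 46.5 CPM in satellite cells at day 7 and 219 ± 43.6 CPM at day 3, with an overlap of days. In FAPs it was at 1261, 973, 494 and 1003 CPM at day 7, against 136, 134, 165 and 96.9 CPM at day 3. The FAP days did not overlap, and the difference was -2.36 ± 0.18 (adjusted p = 8.26e-05). Ptgis, prostacyclin synthase, averaged 13.7 CPM in satellite cells at day 7 and 19.3 CPM at day 3, and 123 ± 78.7 CPM in FAPs at day 7 and 33.0 ± 8.46 CPM at day 3. Dmpk, the myotonic dystrophy kinase, Pnpla2, the triglyceride lipase ATGL, and Thrb, a thyroid hormone receptor, rose by 1.73 ± 0.24, 1.64 ± 0.28 and 1.53 ± 0.30 in FAPs.

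Among genes eligible for naming, the 5 largest falls in FAPs only were all of genes of chromosome repair or segregation. Aurkb, the Aurora B kinase, averaged 54.5 ± 3.32 CPM in satellite cells at day 7 and 66.3 ± 10.2 CPM at day 3, with an overlap of days. In FAPs the level was 3.99, 3.64, 9.56 and 17.0 CPM at day 7, against 46.9, 37.2, 29.0 and 42.0 CPM at day 3. Cenpm, a centromere protein, averaged 35.0 ± 6.46 CPM in satellite cells at day 7 and 34.7 ± 2.99 CPM at day 3, and 8.34 ± 2.60 CPM in FAPs at day 7 and 36.8 ± 3.74 CPM at day 3, and its satellite cell days overlapped. The kinetochore gene Nuf2, the kinesin Kif4 and the recombination gene Rad51ap1 had log2 changes of -2.14, -2.05 and -2.36 in FAPs.

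Of 40 mitosis and G2/M genes, 28 fell in satellite cells and 39 in FAPs, where 24.3% and 10.3% of all genes fell, and none rose in either. Of the 40, 11 fell in FAPs only, 20 fell in both and more in FAPs, and 7 had a common fall. The difference was called for 31 of the 40, all higher in satellite cells, where 15.4% of all genes were, with a median difference of 1.31 against 0.12 over all genes. Summed over the list, satellite cells had 2652, 2602, 2434 and 3600 CPM at day 7, against 4643, 4481, 4811 and 4649 CPM at day 3. FAPs had 351, 385, 498 and 1130 CPM at day 7, against 2441, 2065, 1779 and 2280 CPM at day 3. Days did not overlap in either cell type, and mouse 5 was the highest day 7 library in both. Without mouse 5 the difference was called for 39 of 40. With the scalings RLE and TMM within cell type it was called for 30 and 29.

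Mki67, the Ki-67 antigen gene of dividing cells, averaged 79.3 CPM in satellite cells at day 7 and 89.3 CPM at day 3. FAPs had 13.1, 8.56, 7.58 and 21.4 CPM at day 7, against 67.5, 38.4, 36.2 and 53.5 CPM at day 3. Its difference was 1.82 ± 0.26 (adjusted p = 1.37e-03). Top2a, the topoisomerase of chromosome condensation, averaged 297 CPM in satellite cells at day 7 and 296 CPM at day 3, and 40.9 CPM in FAPs at day 7 and 130 CPM at day 3. Of 43 DNA replication and G1/S genes, 33 fell in satellite cells and 34 in FAPs, 14 of them in common and 3 in FAPs only. The difference was called higher for 16 and lower for 1, Pola2, a polymerase alpha subunit; it was called higher for 6 without the day 3 mouse that has no code, for 9 with TMM within cell type and for 24 without day 7 mouse 5. Pcna, the sliding clamp of replication, fell in both, with log2 changes of -0.98 in satellite cells and -1.05 in FAPs. Among 18 D cyclins and CDK inhibitors 4 differences were higher and 3 lower, beside 15.4% and 8.39% of all genes. Ccnd2 averaged 64.7 CPM in satellite cells at day 7 and 7.84 CPM at day 3, with 192 CPM in FAPs at day 7 and 189 CPM at day 3, while Cdkn1a, the p21 inhibitor, averaged 230 CPM in satellite cells at day 7 and 478 CPM at day 3, and 230 CPM in FAPs at day 7 and 127 CPM at day 3.

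**Figure D3:**
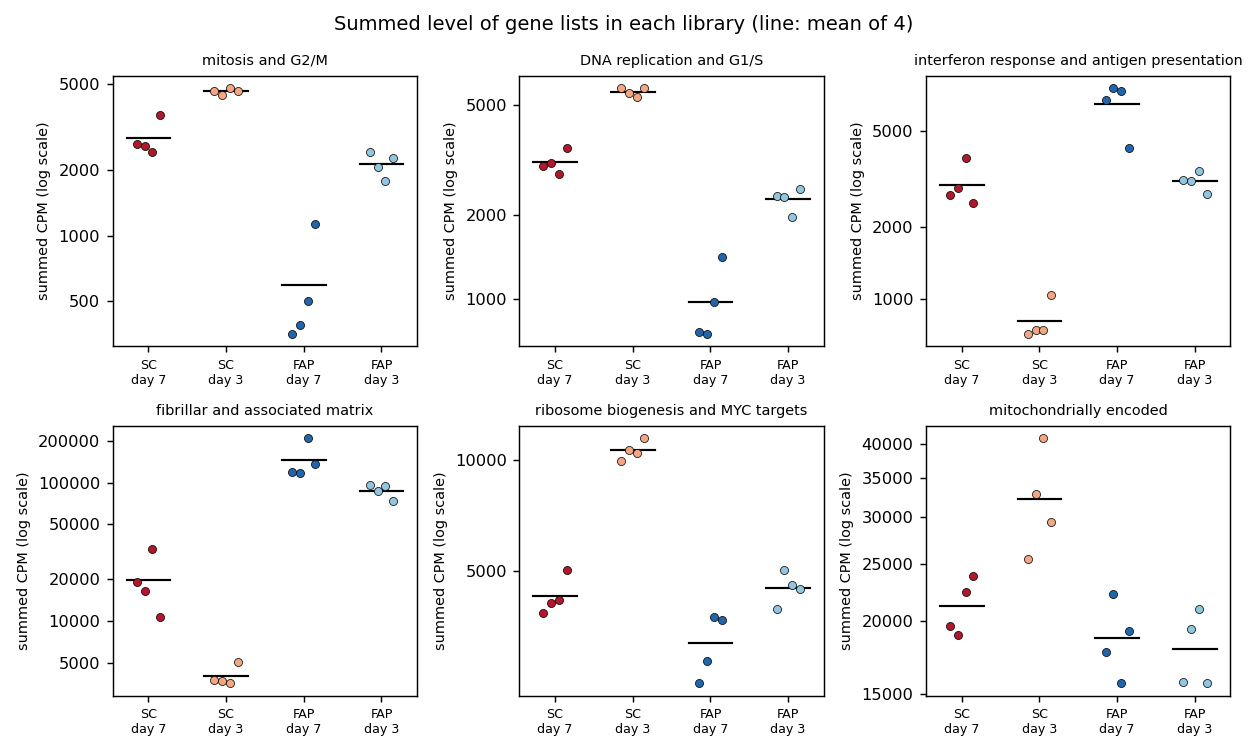
Summed level of 6 gene lists in each library (CPM, log scale), 4 points per group with a line at the mean. The mitosis sum in FAPs lies between 351 and 1130 CPM at day 7 and between 1779 and 2441 CPM at day 3, a wider gap than in satellite cells.

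Most interferon genes rose, and further in satellite cells. Interferons act through STAT proteins and IRF9 on genes of antiviral defence and antigen presentation. Of 32 such genes 30 rose and 1 fell in satellite cells, and 20 rose in FAPs, where 32.5% and 10.2% of all genes rose. The difference was called for 24, all higher in satellite cells, with a median of 2.48, and for 24 under both other scalings. Stat2, a transcription factor of the interferon response, was at 37.5, 50.5, 37.1 and 27.8 CPM in satellite cells at day 7, against 2.53, 2.68, 2.86 and 4.27 CPM at day 3. In FAPs it was at 71.8, 78.6, 53.4 and 47.3 CPM at day 7, against 30.2, 22.8, 28.9 and 29.5 CPM at day 3. The days did not overlap in either cell type, and the satellite cell libraries were below every FAP library at day 3. The difference was 2.47 ± 0.19 (adjusted p = 8.02e-05).

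Isg15, a ubiquitin-like antiviral protein, averaged 36.4 CPM in satellite cells at day 7 and 2.97 CPM at day 3, and 66.1 CPM in FAPs at day 7 and 41.7 CPM at day 3. The immunoproteasome subunits Psmb8 and Psmb9 rose in satellite cells only, with differences of 2.24 ± 0.31 and 2.48 ± 0.28. The class I gene H2-K1 rose in both, more in satellite cells (1.29 ± 0.25), though class I genes share near-identical sequence and their values are uncertain. Of 23 macrophage markers tested 11 fell in satellite cells, where 24.3% of all genes fell, and none rose. Their median difference was -1.91, with 1 called lower. Without the day 3 mouse that has no code it was -0.68, with 1 called higher and 1 lower. The 26 found summed to 175, 267, 300 and 387 CPM in satellite cells at day 7, in rising order, against 843, 1236, 1317 and 4215 CPM at day 3. Spp1, osteopontin, alone gave 830, 1172, 1255 and 2046 CPM of these day 3 sums. The sum of 4215 CPM was that of the mouse without a code, and in the other day 3 libraries Spp1 was most of the sum.

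Promoters of these interferon genes and of the mitosis genes are shown because members of each list moved together. Windows of 300 bases, from 250 before to 50 after the start, came from RefSeq (GRCm38.p6) for 27025 genes, and 8 motifs were searched on both strands in 7 lists. The interferon-stimulated response element was in 12 of 26 interferon promoters (46.2%) and in 3.99% of all. The CCAAT box, as CCAAT, was in 26 of 32 mitosis promoters (81.2%) and in 41.1% of all. The cell cycle homology region, as TTTGAA, was in 24 of 32 (75.0%) and in 20.2% of all, and both together were in 22 (68.8%) and in 8.97% of all. The E-box bound by MYC, as CACGTG, was in 11 of 33 ribosome biogenesis promoters (33.3%) and in 8.09% of all. The NRF1 site was in 11 of 39 nuclear oxidative phosphorylation promoters (28.2%) and in 5.19% of all. E2F sites, as TTTCCCGC and as TTTGGCGC, were each in 6 of 35 DNA replication promoters (17.1%), and in 1.24% and 0.585% of all. The CArG box was in 2 of 19 immediate-early promoters (10.5%) and in 1.81% of all. Matches of different motifs were counted separately, whether or not they overlapped, and a match is a description of letters, not of binding.

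The 250 bases before the start of 3 interferon genes with a called difference read as follows, 5′ to 3′, with the response element in capitals on whichever strand it was found.
Stat2 (chr10:128270248-128270497, plus strand): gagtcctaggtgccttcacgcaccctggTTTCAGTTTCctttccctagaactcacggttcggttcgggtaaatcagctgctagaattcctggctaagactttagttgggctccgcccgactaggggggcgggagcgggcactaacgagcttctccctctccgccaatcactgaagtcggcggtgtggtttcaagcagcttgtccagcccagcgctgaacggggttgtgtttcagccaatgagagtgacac
Gbp7 (chr3:142530086-142530335, plus strand): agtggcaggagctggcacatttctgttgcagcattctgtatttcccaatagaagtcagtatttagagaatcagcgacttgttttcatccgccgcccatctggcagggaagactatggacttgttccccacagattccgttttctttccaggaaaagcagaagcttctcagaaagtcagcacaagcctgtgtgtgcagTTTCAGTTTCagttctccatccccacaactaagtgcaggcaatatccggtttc
Gbp2 (chr3:142620413-142620662, plus strand): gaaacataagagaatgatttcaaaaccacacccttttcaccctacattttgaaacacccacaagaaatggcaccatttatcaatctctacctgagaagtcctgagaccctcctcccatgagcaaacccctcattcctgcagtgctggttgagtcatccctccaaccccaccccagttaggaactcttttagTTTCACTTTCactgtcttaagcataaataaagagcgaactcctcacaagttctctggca

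The same stretch of 3 mitosis genes with a called difference read as follows, with CCAAT boxes and cell cycle homology regions in capitals, the reverse strand forms being ATTGG and TTCAAA.
Mki67 (chr7:135716380-135716629, minus strand): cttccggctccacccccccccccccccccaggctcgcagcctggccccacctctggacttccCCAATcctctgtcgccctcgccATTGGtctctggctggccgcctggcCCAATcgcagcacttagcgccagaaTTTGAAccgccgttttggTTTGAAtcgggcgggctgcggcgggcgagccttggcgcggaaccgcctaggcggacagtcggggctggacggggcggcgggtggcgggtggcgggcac
Kif11 (chr19:37376132-37376381, plus strand): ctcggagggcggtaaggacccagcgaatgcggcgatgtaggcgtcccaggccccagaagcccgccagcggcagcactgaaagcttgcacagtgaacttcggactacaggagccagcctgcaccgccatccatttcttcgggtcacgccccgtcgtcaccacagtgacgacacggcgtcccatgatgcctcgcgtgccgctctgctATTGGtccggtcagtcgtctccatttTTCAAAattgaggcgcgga
Smc2 (chr4:52438971-52439220, plus strand): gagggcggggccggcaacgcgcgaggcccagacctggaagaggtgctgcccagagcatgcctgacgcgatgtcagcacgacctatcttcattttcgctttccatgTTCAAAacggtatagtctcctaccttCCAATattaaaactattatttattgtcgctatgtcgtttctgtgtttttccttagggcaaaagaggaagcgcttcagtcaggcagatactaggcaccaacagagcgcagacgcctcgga

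The stretch before Eif4a1, a translation helicase of the ribosome biogenesis and MYC target list, read as follows with its E-box in capitals.
Eif4a1 (chr11:69672424-69672673, minus strand): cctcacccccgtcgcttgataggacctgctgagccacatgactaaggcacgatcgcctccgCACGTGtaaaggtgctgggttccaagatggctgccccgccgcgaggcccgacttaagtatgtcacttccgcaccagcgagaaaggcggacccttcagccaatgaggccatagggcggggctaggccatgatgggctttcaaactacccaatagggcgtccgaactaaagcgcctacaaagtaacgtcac

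The 3 interferon genes had differences of 2.47 ± 0.19 (Stat2), 2.56 ± 0.25 (Gbp7) and 1.91 ± 0.24 (Gbp2), and the GTPases Gbp7 and Gbp2 rose in both cell types. Of the mitosis genes, Kif11, the spindle motor Eg5, differed by 1.94 ± 0.29 and Smc2, a condensin subunit, by 1.18 ± 0.18.

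Most extracellular matrix genes rose in satellite cells, and fewer rose in FAPs. Of 40 fibrillar and associated matrix genes, 38 rose in satellite cells and 16 in FAPs, none fell in either, and the difference was called higher for 35, with a median of 2.20 (33 with TMM within cell type). Of the 40, 22 rose in satellite cells only and 13 in both and more in satellite cells. The share of all genes that rose was 32.5% in satellite cells and 10.2% in FAPs. Summed over the list, day 7 mouse 3 had 33070 CPM in satellite cells, against 10780 to 19100 CPM in the other day 7 libraries. In FAPs this mouse had 210200 CPM, against 117100 to 136400 CPM in the other day 7 libraries. The list was not rerun without mouse 3. Col1a1, the main fibrillar collagen chain, was at 1850, 1264, 5899 and 448 CPM in satellite cells at day 7, against 25.0, 56.4, 27.7 and 380 CPM at day 3. In FAPs the level was 23460, 16750, 72020 and 28210 CPM at day 7, against 15060, 9196, 10750 and 9224 CPM at day 3. The highest day 3 satellite cell library was that of the mouse without a code, and FAP levels stayed above all satellite cell levels. The difference was 3.37 ± 1.00 (adjusted p = 0.0350), and with brown fat it was 0.41 (adjusted p = 0.847).

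Sparc, a matricellular protein that binds collagen, varied less: 4805, 4391, 6383 and 2571 CPM in satellite cells at day 7, against 627, 789, 698 and 885 CPM at day 3. In FAPs its days overlapped, at 14500 to 21340 CPM at day 7 and 10570 to 14640 CPM at day 3. The difference was 2.20 ± 0.26 (adjusted p = 5.55e-04). Basement membrane genes, which build the sheath that satellite cells rest under, did likewise: 15 of 17 rose in satellite cells and 10 in FAPs, with a called difference for 14 higher and 1 lower, Lama5, which was under 1 CPM in FAPs. Col4a1 was at 361, 351, 612 and 166 CPM in satellite cells at day 7, against 5.27, 10.9, 7.62 and 19.2 CPM at day 3. In FAPs it averaged 382 CPM at day 7 and 147 CPM at day 3, so that the cell types had like levels at day 7 only (difference 3.81 ± 0.50, adjusted p = 8.14e-04). Lama2, the laminin chain of muscle, averaged 151 CPM in satellite cells at day 7 and 20.2 CPM at day 3, and 127 CPM in FAPs at day 7 and 54.4 CPM at day 3.

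FAP markers in the satellite cell libraries were read beside this rise. The summed level of 30 FAP identity genes was 1676 to 3414 CPM in satellite cells at day 7 and 444 to 773 CPM at day 3, against 15560 to 47520 CPM and 12750 to 14170 CPM in FAPs. Dcn, decorin, was at 158, 191, 243 and 57.6 CPM in satellite cells at day 7, against 9.43, 29.7, 15.6 and 116 CPM at day 3. Dcn rose in satellite cells (adjusted p = 0.0439), with an overlap of days. Pdgfra was at 0.837, 1.56, 6.42 and 1.56 CPM in satellite cells at day 7, against 0.214, 0.882, 0.699 and 13.6 CPM at day 3, with no called change (adjusted p = 0.686). Without the mouse that has no code it rose, by 2.07 ± 0.73 on the log2 scale (adjusted p = 0.0365). Ly6a was at 3.52, 4.09, 4.76 and 7.72 CPM at day 7, against 2.23, 3.03, 6.81 and 31.8 CPM at day 3, with no called change either with that mouse (adjusted p = 0.215) or without it (adjusted p = 0.586). The part of FAPs in the satellite cell libraries was not tested. Without the mouse that has no code, the difference was called for 35 of the 40 matrix genes, and it was called higher for 13 and lower for 1 of the 29 FAP identity genes tested, against 8 and 0 with it. Without day 7 mouse 5 the FAP identity counts were 7 and 1. Tenocyte markers also rose, 9 of 11 in satellite cells and 8 of 11 in FAPs, and their part was not tested.

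Signalling lists differed in balance. Of 23 FGF pathway genes 4 differences were higher and 5 lower, of 33 Wnt pathway genes 5 and 2, and of 26 BMP genes 6 and 1, beside 15.4% higher and 8.39% lower over all genes. The FGF counts were 4 higher and 3 lower without the day 3 mouse that has no code. They were 5 higher and 3 lower without day 7 mouse 5. Of 30 TGF-beta ligands, receptors and CCN proteins, 19 rose in satellite cells and 8 in FAPs, and the difference was called higher for 14 and lower for none (12 and 1 with TMM within cell type). Tgfb2 averaged 102 CPM in satellite cells at day 7 and 21.2 CPM at day 3, and 113 CPM in FAPs at day 7 and 71.1 CPM at day 3. Inhba, the activin A subunit, averaged 51.7 CPM in satellite cells at day 7 and 6.91 CPM at day 3, and 304 CPM in FAPs at day 7 and 418 CPM at day 3 (difference 2.73 ± 0.66, adjusted p = 0.0146), but the satellite cell days overlapped and 1 library, that of day 7 mouse 3, held 160 CPM. Of 24 immediate-early genes, the fast targets of growth and stress signals, 19 rose in satellite cells and 7 in FAPs, with 13 differences higher and 2 lower (1 lower without the day 3 mouse that has no code). Fos averaged 1492 CPM in satellite cells at day 7 and 352 CPM at day 3, and 1898 CPM in FAPs at day 7 and 1362 CPM at day 3. Klf2, a zinc finger factor of quiescent cells, did the opposite, at 8.94 CPM in satellite cells at day 7 and 14.9 CPM at day 3, and 30.0 CPM in FAPs at day 7 and 15.8 CPM at day 3, with an overlap of days in satellite cells.

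Notch signalling holds satellite cells in quiescence. Of 21 Notch pathway genes 13 rose in satellite cells and 6 in FAPs, and the difference was called higher for 8 and lower for 3, where 15.4% and 8.39% of all genes were. Among receptors, Notch3 averaged 122 CPM in satellite cells at day 7 and 22.1 CPM at day 3, and 10.97 CPM in FAPs at day 7 and 4.81 CPM at day 3 (difference 1.23 ± 0.32, adjusted p = 0.0194). Notch3 is also a pericyte marker. The target gene Heyl was at 545, 431, 622 and 241 CPM in satellite cells at day 7, against 102, 68.4, 110 and 44.1 CPM at day 3, with FAP means of 42.4 and 25.6 CPM. The 3 with lower differences were Dll1 and Jag2, both ligands, and Hes6, a factor of differentiating myoblasts that averaged 49.2 CPM in satellite cells at day 7 and 98.1 CPM at day 3. Dll1 and Jag2 were at about 1 CPM or less in FAPs, where the days of Jag2 overlapped.

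Most genes of the imprinted growth network rose. Of 29 genes of the IGF system and the imprinted network 22 rose in satellite cells and 16 in FAPs (32.5% and 10.2% of all genes), with differences called higher for 9 and lower for 5, and lower for 7 under both other scalings. Igf2, the fetal growth factor, was at 381, 358, 457 and 275 CPM in satellite cells at day 7, against 19.2, 18.2, 18.95 and 12.9 CPM at day 3. FAPs had 484, 444, 82.1 and 145 CPM at day 7, against 2.49, 3.52, 3.93 and 2.78 CPM at day 3. Days lay far apart in both, and the difference, -1.80 ± 0.58, was near the threshold (adjusted p = 0.0494). Cdkn1c, the imprinted CDK inhibitor p57, averaged 275 CPM in satellite cells at day 7 and 101 CPM at day 3, and 189 CPM in FAPs at day 7 and 7.67 CPM at day 3 (difference -2.65 ± 0.47, adjusted p = 3.58e-03). Mest rose more in FAPs (-0.97 ± 0.28). Igf1, the muscle growth factor, rose more in satellite cells (2.88 ± 0.55), where it averaged 91.0 CPM at day 7 and 5.49 CPM at day 3, and 763 CPM in FAPs at day 7 and 295 CPM at day 3.

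**Figure D4:**
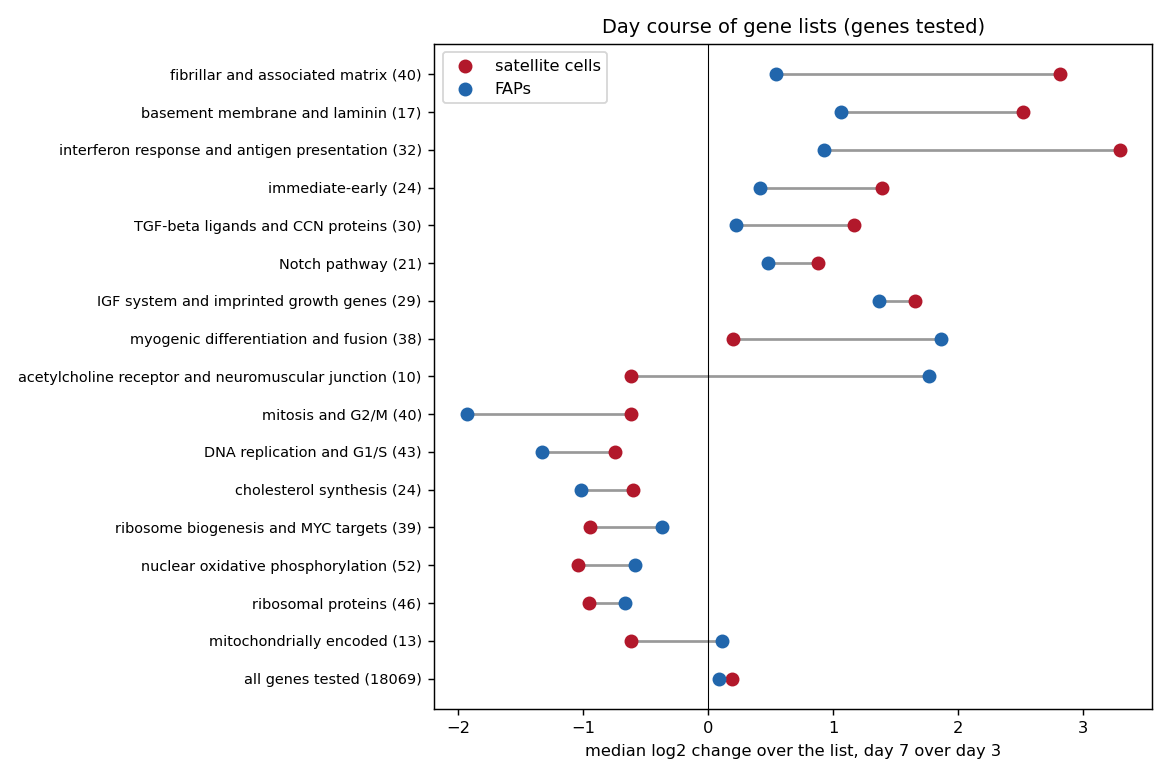
Median log2 change of day 7 over day 3 for 16 gene lists and for all genes tested, with the number of genes tested in brackets. Satellite cells and FAPs are joined by a line; the interferon list has medians of 3.29 in satellite cells and 0.93 in FAPs, the mitosis list -0.62 and -1.93.

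Of 38 myogenic differentiation and fusion genes 13 rose and 8 fell in satellite cells, shares close to those of all genes (32.5% and 24.3%). In FAPs 18 rose and none fell, where 10.2% and 10.3% of all genes did, and the difference was called lower for 13 and higher for 2, with a median of -1.31. Their summed level was 7143 to 10980 CPM in satellite cells at day 7 and 3559 to 6298 CPM at day 3, against 1048 to 1329 CPM and 773 to 1182 CPM in FAPs, where the days overlapped. Acta1, skeletal actin, was at 2577, 1213, 3012 and 1134 CPM in satellite cells at day 7, against 329, 275, 421 and 82.2 CPM at day 3. In FAPs it was at 66.8, 115, 44.3 and 39.7 CPM at day 7, against 2.38, 1.36, 1.67 and 0.309 CPM at day 3. Days did not overlap in either, and the difference was -2.72 ± 0.53 (adjusted p = 5.63e-03). Myl1, a fast myosin light chain, averaged 623 CPM in satellite cells at day 7 and 79.6 CPM at day 3, and 14.4 CPM in FAPs at day 7 and 0.169 CPM at day 3.

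Of 20 mature fibre genes 16 rose in satellite cells and 11 in FAPs. The fitted change in satellite cells was above 0 for 19 of the 20, and the 1 called fall there was that of Eno3, an enolase. The summed level in satellite cells, with Eno3 in it, was 929 to 1631 CPM at day 7 and 1784 to 1994 CPM at day 3. In FAPs it was 30.9 to 60.4 CPM at day 7 and 15.6 to 16.4 CPM at day 3. Erythroid markers moved with them in FAPs, where 5 of 6 rose and the summed level was 33.4 to 96.9 CPM at day 7 and 4.60 to 12.8 CPM at day 3. The part of muscle fragments or blood in these values was not tested. Pax7 stayed at 0 CPM in 7 of 8 FAP libraries. Myog, which drives differentiation, was at 0.619, 0.355, 0.247 and 8.27 CPM in FAPs at day 7, mouse 5 being the highest, and at 0.197 CPM or less at day 3. Of 10 acetylcholine receptor and junction genes 5 fell and 4 rose in satellite cells, where 24.3% and 32.5% of all genes did. In FAPs 4 rose and none fell, where 10.2% and 10.3% of all genes did. The difference was called lower for 3 and higher for none, beside 8.39% and 15.4% of all genes. Agrn and Chrnb1 rose in both cell types. Chrng, the fetal receptor subunit, averaged 34.2 CPM in satellite cells at day 7 and 86.2 CPM at day 3, and Chrna1 405 and 852 CPM. With brown fat the myogenic difference was called lower for 1 of 38 and higher for 2, with a median of -0.59.

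**Figure D5:**
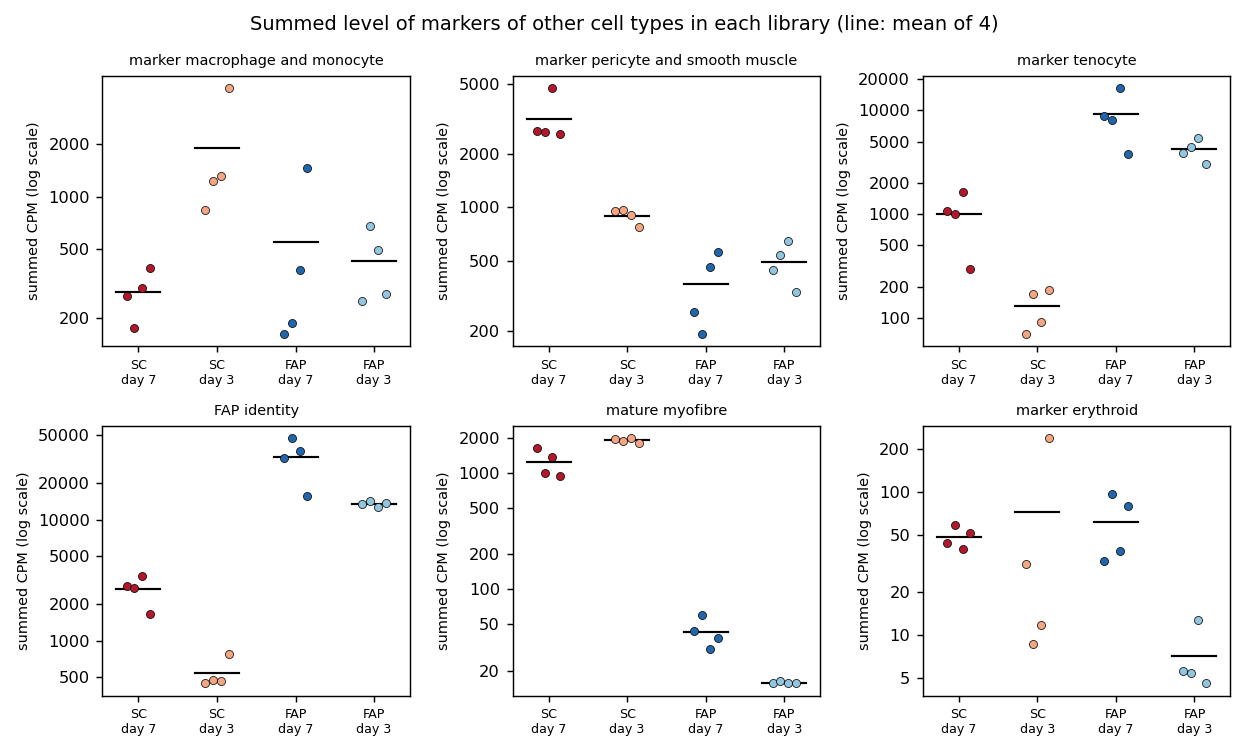
Summed level of markers of other cell types, of FAP identity genes and of mature myofibre genes in each library (CPM, log scale), 4 points per group with a line at the mean. Pericyte markers are highest in satellite cells at day 7 (2594 to 4716 CPM) and the macrophage sum is highest in 1 satellite cell library of day 3 (4215 CPM).

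Most genes of ribosome production and of nuclear-encoded respiration fell in satellite cells. Of 39 ribosome biogenesis and MYC target genes 35 fell in satellite cells and 10 in FAPs, where 24.3% and 10.3% of all genes fell. The difference was called lower for 18 and higher for none (12 lower without the day 3 mouse that has no code, 25 with TMM within cell type). Ncl, nucleolin, was at 498, 489, 549 and 795 CPM in satellite cells at day 7, against 1518, 1556, 1381 and 1850 CPM at day 3. In FAPs its days overlapped, at 186 to 491 CPM at day 7 and 423 to 510 CPM at day 3 (difference -1.004 ± 0.22, adjusted p = 9.87e-03). Odc1, the first enzyme of polyamine synthesis and a MYC target, fell by 1.81 on the log2 scale in satellite cells. Eif4a1 averaged 222 CPM in satellite cells at day 7 and 501 CPM at day 3, and 171 CPM in FAPs at day 7 and 245 CPM at day 3.

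All 52 nuclear genes of oxidative phosphorylation fell in satellite cells and 35 in FAPs, with 26 differences lower (35 with RLE size factors, 41 with TMM within cell type). Of 13 mitochondrially encoded transcripts 9 fell in satellite cells, and none fell and 1 rose in FAPs, and the difference was called lower for 9. mt-Co1, a subunit of complex IV, averaged 4371 CPM in satellite cells at day 7 and 6199 CPM at day 3, and 4237 CPM in FAPs at day 7 and 3905 CPM at day 3 (difference -0.62 ± 0.18, adjusted p = 0.0354). With brown fat the mitochondrial difference was called for 2 of 13. Ribosomal proteins, uncertain because of their pseudogenes, fell in both, 43 of 46 in satellite cells and 37 in FAPs, with 13 differences lower (8 without the day 3 mouse that has no code, 24 with TMM within cell type). Of 24 oxidative stress genes 16 fell in satellite cells and 6 in FAPs, where 24.3% and 10.3% of all genes fell. Of their differences 11 were lower and 3 higher, beside 8.39% and 15.4% of all genes. The metallothionein Mt1 averaged 418 CPM in satellite cells at day 7 and 1020 CPM at day 3, and 1542 CPM in FAPs at day 7 and 1679 CPM at day 3.

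In the lists of protein folding and sterol synthesis, more differences were called higher than lower, as over all genes (15.4% higher and 8.39% lower). Of all genes, 32.5% rose and 24.3% fell in satellite cells, and 10.2% rose and 10.3% fell in FAPs. Of 24 unfolded protein response genes 10 fell and 5 rose in satellite cells, 11 fell and 1 rose in FAPs, and 9 differences were higher and 1 lower (3 and 4 lower with RLE and with TMM within cell type). Among them 3, Dnajc3, Pdia3 and Pdia4, fell in FAPs only, and 2, Hsp90b1 and Pdia6, fell in both and more in FAPs. Xbp1, the transcription factor of this response, averaged 160 CPM in satellite cells at day 7 and 66.6 CPM at day 3, and 203 CPM in FAPs at day 7 and 222 CPM at day 3 (difference 1.44 ± 0.17, adjusted p = 5.32e-04). Pdia4, a disulfide isomerase, averaged 280 CPM in satellite cells at day 7 and 237 CPM at day 3, and 374 CPM in FAPs at day 7 and 684 CPM at day 3. Of 24 cholesterol synthesis genes 13 fell and 1, Dhcr7, rose in satellite cells, 16 fell in FAPs, and 8 differences were higher and 1 lower. Of these genes 4 fell in FAPs only and 2, Cyp51 and Fdft1, in both and more in FAPs. Cyp51, lanosterol demethylase, averaged 40.0 CPM in satellite cells at day 7 and 65.2 CPM at day 3, and 47.3 CPM in FAPs at day 7 and 154 CPM at day 3.

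The common course held 914 genes that rose and 1051 that fell. C1qtnf3, a secreted C1q relative, was at 2019, 2059, 1755 and 2352 CPM in satellite cells at day 7, against 225, 285, 353 and 129 CPM at day 3. In FAPs the level was 3516, 2319, 2228 and 1210 CPM at day 7, against 233, 400, 613 and 176 CPM at day 3. Days lay apart in both, and the difference, 0.35 ± 0.33, was not called (adjusted p = 0.487). Olfml2a, an olfactomedin-like matrix protein, Nrk, a kinase, Palmd, palmdelphin, and Edil3, an integrin ligand, rose by 2.72 to 3.42 on the log2 scale in each cell type. Pgk1, a glycolytic kinase, averaged 89.3 CPM in satellite cells at day 7 and 348 CPM at day 3, and 51.2 CPM in FAPs at day 7 and 183 CPM at day 3. The log2 change of Mif, a cytokine, was -2.19 in satellite cells and -1.88 in FAPs, and that of Hmgb2, a chromatin protein, was -1.85 and -1.80. Trip13, a checkpoint gene, had -1.84 and -2.42, and Eno1b, a near-identical copy of enolase, -2.36 and -1.86. Of 20 glycolysis genes 12 fell and 3 rose in satellite cells, and 10 fell and none rose in FAPs, with 7 common falls. Of all genes, 24.3% fell and 32.5% rose in satellite cells, and 10.3% fell and 10.2% rose in FAPs. The glycolysis difference was called higher for 3 and lower for 3 (5 lower with TMM within cell type), beside 15.4% and 8.39% of all genes.

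The brown fat libraries, from other muscles of the same mice, measured the same difference again. Among 17908 genes tested there, 1906 (10.6%) were higher and 1304 (7.28%) lower. Each of the 60 and 54 opposite genes had the same sign of difference there, and it was called for 45 of the 60 and 40 of the 54, but the opposite class itself was met again by 13 of each. Of the genes that rose in satellite cells only, 1014 of 1874 tested had the same called difference, and of those that fell in FAPs only, 93 of 161. Of the mitosis list 34 of 40 were called higher, and of the interferon list 23 of 32, with 1 lower. The fibrillar matrix list had 11 of 40 higher and 1 lower, with a median of 1.17. These libraries share mice and days with the control libraries, so they are not an independent set of animals.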

How the data were processed

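RNA sequencing values of 16 control libraries (4 per cell type and day) were analysed, and the 16 libraries with brown fat served as a second measurement. The authors deposited, as 1 table per day, expected counts per gene, not normalised, of which 71.8% of those above 0 were exactly whole. The submitters' processing notes name DRAGEN and mm10. Which annotation and strand setting went with them, and how multiply matching reads were treated, is not given in the sources used here. Libraries were made with the SMARTer Ultra Low kit from 10 ng of RNA, per the labels' protocols. The 287 repeated identifiers among 55774 entries had the same values as their first entry and were dropped (55487 genes remained). Identifiers (55227 matched) and 1-based coordinates came from GENCODE M21 (mm10).

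Counts were rounded (no total moved by more than 0.000343%) and scaled by TMM (factors 0.796 to 1.23). Genes passing filterByExpr (minimum count 10, minimum total 15) were tested by edgeR 4.0.16's quasi-likelihood F test in R 4.3.3, with Benjamini-Hochberg adjustment over all genes and a threshold of 0.05. The difference between cell types had the mouse as a block (8 mice, 6 residual degrees of freedom). Day changes were fitted for each cell type on its 8 libraries. SE is the absolute log2 change over the square root of F. List counts come from the fit across all genes. The labels say that samples came from the same mouse, and animal codes link the cell types; at day 3 the libraries without a code were taken as 1 mouse, which is an inference. Over genes, the 2 libraries of a mouse deviated from their group means with a correlation of -0.0807 to 0.351 (mean 0.159), and for 6 of 8 mice the own partner was the best match. No 2 libraries of a group agreed within counting noise (chi-square per degree of freedom of 11.2 or more). The smallest value of a pair at day 7 was 39.6 in FAPs and 13.2 in satellite cells. At day 3 it was 11.2 in FAPs and 15.1 in satellite cells. P-values of the day changes are set against the spread between mice of a group. Those of the difference are set against the spread, between mice of a day, of the gap between satellite cells and FAPs.

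On simulated data the test recovered 36% of 2-fold and 83% of 4-fold differences, with 2 false calls among 11956 unchanged genes. The simulated counts were drawn from group means and dispersions of the data, with a small mouse effect that was the same in both cell types. No outlying or mixed library was simulated, so the share of false calls in the real data was not measured. The named genes are, by rule, up to 8 opposite genes per direction with the largest smaller change and no overlap of days, up to 5 per direction in 1 cell type or in common, and the 5 smallest p-values per direction; genes with Gm or Rik names, ribosomal proteins, histones and globins were left out. Of the genes the rule chose, 1 is not reported here. Other genes named are list members chosen after their values were seen. The lists and the comparison were chosen with earlier results of these data known. Alternatives were DESeq2 1.42.0, limma 3.58.1 (voom, fixed or random mouse), no block, other scalings and filters, and each mouse left out. Demanding a log2 change over 1 for the day counts, a minimum count of 50 for day counts and classes, a random mouse effect for classes, and lists and FAP markers without single mice were chosen after seeing the data.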

Additional observations from a re-analysis of the deposited data

Results flagged for a closer look

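The day course differed between the cell types, by the test of the difference itself, for 2788 genes that ran higher and 1516 that ran lower in satellite cells (edgeR, adjusted p under 0.05). Among genes that moved in opposite ways, the differences (log2, satellite cells minus FAPs) were 3.77 for Mxd3, 4.28 for Kcnab1, 2.40 for Mlf1, 2.27 for S100a16, 3.38 for Loxl3, 1.60 for Srpx2, 2.52 for Neil3 and 1.49 for Pon3. In the reverse direction they were -5.84 for Kcnn4, -3.98 for Srgap3, -3.06 for Fmo1, -3.65 for Ankrd1, -3.00 for Mtss1, -3.91 for Ptk2b, -2.76 for Ezr, -3.70 for St8sia2 and -5.09 for Trp53i11.

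Genes that rose in satellite cells only had differences of 5.15 for Steap4, 4.24 for Pdgfrb, 3.81 for Procr, 4.39 for Galnt16, 3.96 for Il6, 2.91 for Fam114a1, 2.92 for Egr2, 3.42 for Msc and 2.90 for Tgfbr3. Those that fell in satellite cells only had -3.73 for Hmga1b, -3.69 for Hmga1, -3.56 for Slc37a2, -3.04 for Tuba4a, -3.73 for Egln3 and -2.25 for Gpd2. For FAPs only, the differences were -2.36 for H19, -2.21 for Ptgis, -1.56 for Dmpk, -1.44 for Pnpla2 and -1.87 for Thrb among genes that rose, and 2.12 for Rad51ap1, 2.14 for Aurkb, 2.17 for Cenpm, 1.91 for Nuf2 and 2.10 for Kif4 among genes that fell.

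A single library stood far from the other 3 of its group in 21 of 220 groups checked. The groups are genes read in the same libraries and are not independent, so the nominal rate of 1 in 20 is not a fair yardstick for this count. Day 7 mouse 5 accounted for 9 of the 21. In FAPs it had 6.04 CPM of Neil3 (others 1.51 to 2.27), 13.2 CPM of Ankrd1 (7.79 to 8.11), 6.29 CPM of Rad51ap1 (1.77 to 2.39), 20.4 CPM of Nuf2 (4.64 to 7.05), 10.8 CPM of Trip13 (2.75 to 3.79), 57.3 CPM of Hmgb2 (19.3 to 25.1) and 199.4 CPM of Xist (0). In satellite cells it had 133.2 CPM of Hmgb2 (83.9 to 86.8) and 294.2 CPM of Xist (0.148 or less).

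Day 7 mouse 3 had 314 CPM of Pdgfrb (42.2 to 63.9), 105.5 CPM of Procr (10.1 to 21.1) and 23.6 CPM of Trp53i11 (10.2 to 12.5) in satellite cells, and 30.4 CPM of Dmpk (19.03 to 20.97) in FAPs. The day 3 mouse without a code had 18.8 CPM of Loxl3 (4.21 to 4.63), 1.67 CPM of Nrk (2.79 to 2.99) and 3.14 CPM of Palmd (6.17 to 6.40) in satellite cells. Day 3 mouse 3a had 85.6 CPM of Procr (45.8 to 52.1) and 270.9 CPM of Pgk1 (146.7 to 163.5) in FAPs and 35.3 CPM of Egln3 (23.5 to 24.2) in satellite cells. Day 3 mouse 3b had 532 CPM of Ankrd1 (652.2 to 669.5) in satellite cells and 31.2 CPM of Cenpm (38.0 to 39.2) in FAPs.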

How the results depend on the processing

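For 47 of the 53 genes chosen by rule the difference kept its direction and its side of the threshold under every alternative run. Trip13 was called without day 7 mouse 5 (1.12) and with the mouse as a random effect (0.85). The other 5, all of the common course and never called, changed direction. Without the mouse as a block, Olfml2a was at -0.011, Nrk at -0.00094, Palmd at -0.42 and Hmgb2 at -0.047. Palmd was at -0.0089 with DESeq2, -0.24 with limma voom, -0.057 with RLE size factors and -0.12 with TMM within cell type, and Hmgb2 at -0.0049 with DESeq2, -0.0042 with RLE size factors and -0.069 with TMM within cell type. With each mouse left out in turn, the range was -0.12 to 0.45 for Olfml2a, -0.53 to 0.60 for Palmd, -0.025 to 0.55 for C1qtnf3 and -0.066 to 0.25 for Hmgb2. Without the mouse as a block, 2116 genes were called higher and 1081 lower. With each mouse left out in turn, the calls ranged from 1917 to 2755 higher and from 1048 to 1536 lower. The same range was 9009 to 10414 for satellite cells by day, 1865 to 4629 for FAPs by day, 12 to 95 for opposite genes with the rise in satellite cells and 17 to 71 with the rise in FAPs. It was 2107 to 2670 for satellite cells only, 142 to 332 for FAPs only and 1030 to 2422 for the common class. TMM within cell type gave 2305 lower differences and 38 opposite genes with the rise in satellite cells. DESeq2 gave 86 opposite genes with the rise in FAPs. Demanding a log2 change over 1, which for the day counts was chosen after seeing the data, gave 6045 calls in satellite cells, 1836 in FAPs, 13 and 32 opposite genes and 843 common ones. The cause of these moves was not tested.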
